A study of Rattus norvegicus with 15 samples.

Results

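The mevalonate arm of cholesterol (CHOL) synthesis is the run of enzymes that turns acetyl-CoA into the isoprenoid building blocks from which squalene, and then CHOL, are made. Expression of 8 of its genes was followed in the intestine of rats after Roux-en-Y gastric bypass (RYGB). A probe was taken if the array annotation named its gene Acat2 (entered there under the older name Acat3), Hmgcs1, Mvk, Pmvk, Mvd, Idi1, Fdps or Ggps1, and each probe was kept apart. This gave 12 of the 41012 probes on the array, and all 12 were among the 17028 probes that could be tested. The rule itself used gene names, although it was set with earlier results of these data known.

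The 15 male rats formed 3 groups of 5, with 1 array per rat. Wistar rats, nondiabetic and without operation, stood for the normal state. GK rats are an inbred nonobese strain with spontaneous diabetes, and those of GK-Sham-PF had the intestine cut and rejoined 16 cm from the ligament of Treitz without rearrangement and were pair-fed. In GK-S-30 rats, RYGB was done with a Roux limb (RL) of 30 cm, the stretch of intestine that is joined to the stomach pouch and receives food without bile. GK rats were operated on at 16 wk of age and sampled 14 wk later after an overnight fast, and Wistar rats were age-matched. RNA came from a whole piece of the RL in GK-S-30 and from the matching stretch of jejunum in the other groups, so that all layers of the wall were measured together. Untreated GK rats were not analysed here, so that GK-Sham-PF against Wistar carries strain, sham operation and pair-feeding at once.

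The arm begins with the joining of acetyl-CoA units by the cytosolic thiolase Acat2 and the synthase Hmgcs1, and passes through mevalonate, which the kinases Mvk and Pmvk and the decarboxylase Mvd convert to isopentenyl diphosphate. Idi1 isomerizes this unit, Fdps joins units to farnesyl diphosphate, and Ggps1 adds a further unit for geranylgeranyl diphosphate, which anchors small GTPases in membranes. Farnesyl diphosphate is the fork of the route, since it also feeds dolichol, ubiquinone and protein prenylation. In most cells the genes for CHOL synthesis are read together by the transcription factor SREBP-2 when sterols are scarce, and the small intestine is a site of both CHOL uptake and synthesis.

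The array reads each gene through probes of 60 bases, and the sequences of the probes on which the comparison of early steps, late steps and the side branch turns are shown here, from the array files, 5′ to 3′. In the Fdps line and in the line of its near copy RGD1560208, capitals mark the longest run of bases that the probes share.

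Hmgcs1 (A_44_P487240): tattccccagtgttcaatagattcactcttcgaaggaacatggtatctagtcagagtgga
Idi1 (A_44_P251944): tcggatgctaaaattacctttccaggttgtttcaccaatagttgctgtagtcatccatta
Fdps (A_44_P432965): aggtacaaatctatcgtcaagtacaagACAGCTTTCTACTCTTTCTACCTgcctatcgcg
RGD1560208 (A_44_P525250): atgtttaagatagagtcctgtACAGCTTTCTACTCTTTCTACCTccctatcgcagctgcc
Ggps1 (A_44_P119296): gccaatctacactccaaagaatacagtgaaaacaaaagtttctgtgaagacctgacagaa

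In the rn4 build used by the array files, the Hmgcs1 probe lies at chr2:51751804-51751863 and the second Hmgcs1 probe, A_43_P11890, at chr2:51754420-51754478. The Idi1 probe is placed at chr17:72560094-72560498 on the minus strand, a span of 405 bases for 60 bases of probe, so that it crosses an exon junction. The Fdps probe is placed at chr2:181170192-181170336 on the minus strand, with a span of 145 bases, and the Ggps1 probe at chr17:59469082-59469141. The run shared by Fdps and RGD1560208 is 23 bases long, and no other probe of the array shares more than 15 bases in a row with any member probe.

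On the arrays, values are log2 signals after quantile normalization, in which 1 unit is a factor of 2. A difference was called at an adjusted p under 0.05 (limma, Benjamini-Hochberg over all 17028 probes). Each array had 66.7% to 74.8% of its probes well above background. The median standard error (SE) of a difference was 0.149, a precision that depends on the number of arrays and on the spread between them. The dimmest arrays were those of Wistar replicate 3 and GK-Sham-PF replicate 5, with a 75th percentile of the processed signal of 207 and 208 against 302 to 357 on the others. All 12 member probes were well above background on all 15 arrays except the second Acat2 probe, which missed it on 1, and none was saturated. Arrays were not balanced over slides. Slide A held 4 Wistar arrays, slide B 1 Wistar and 3 GK-Sham-PF, slide C 2 GK-Sham-PF and 2 GK-S-30, and slide D 3 GK-S-30 arrays. Slide C therefore gives GK-S-30 minus GK-Sham-PF within 1 slide and slide B gives GK-Sham-PF minus Wistar, and a fit that takes slide as a fixed term (the fixed slide block) returns these same differences. In a bulk sample, fewer cells of a type and less RNA per cell cannot be told apart.

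RYGB rats had higher mevalonate-arm expression than sham-operated rats. In GK-S-30 set against GK-Sham-PF, 9 of the 12 member probes, from 6 of the 8 genes, were called higher and none lower, where 4.77% of all tested probes were called higher and 3.59% lower. The genes were Acat2, Hmgcs1, Mvk, Pmvk, Idi1 and Fdps. The median difference of the 12 probes was 1.41, against -0.022 over all tested probes. In 8 of the 12, every GK-S-30 array lay above every GK-Sham-PF array, as it did in 4.6% of all tested probes, while 3.8% separated in the other direction. Against Wistar, 9 probes of the same 6 genes were called higher in GK-S-30 and none lower (11.9% and 12.2% of all probes), with a median of 1.31 against -0.011. Both comparisons use the same GK-S-30 arrays. In 9 of the 12 the GK-S-30 and Wistar arrays did not overlap, with GK-S-30 higher, against 9.13% of all probes in that direction and 9.15% in the other.

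**Figure D1:**
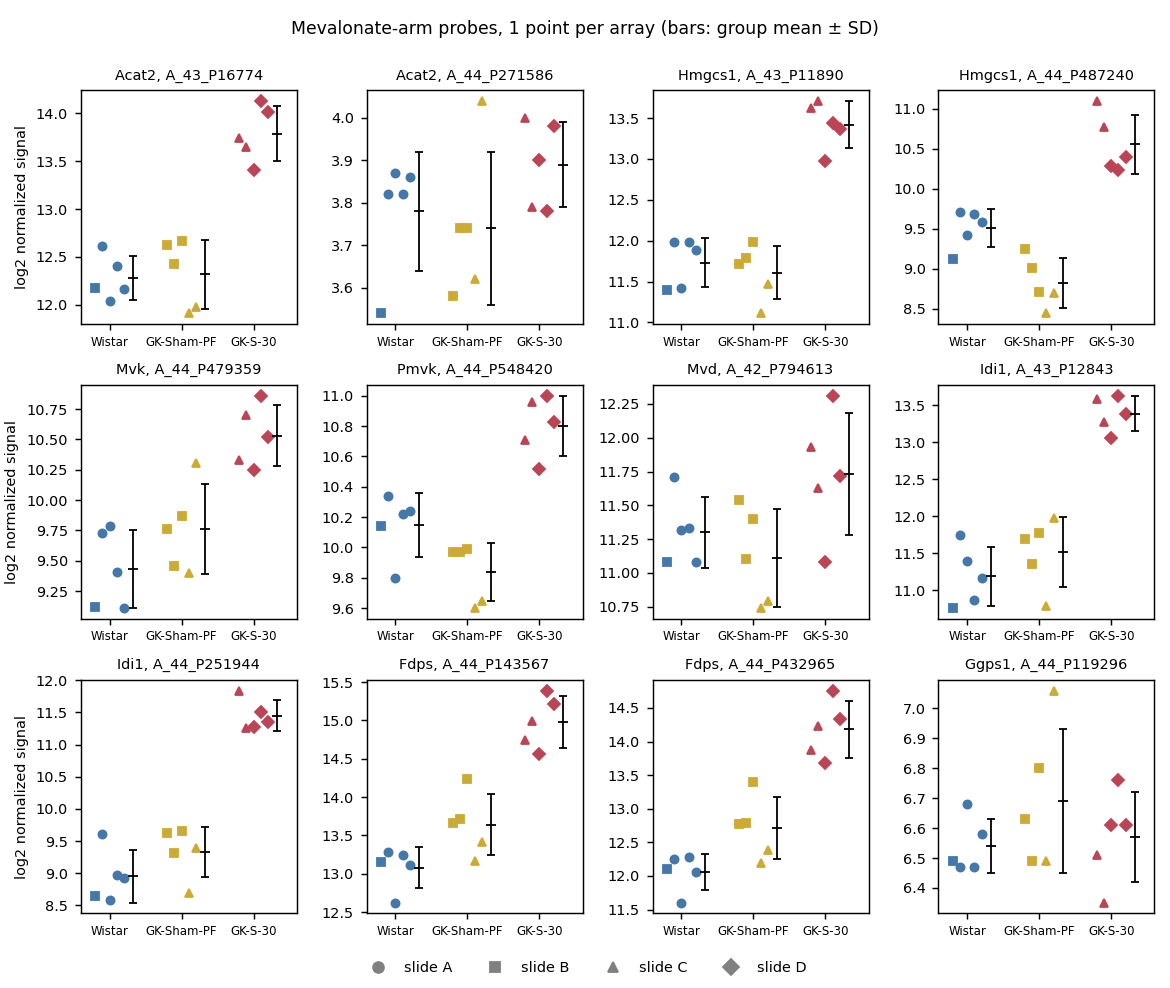
Log2 normalized signal (vertical axis, own scale in each panel) of the 12 mevalonate-arm probes on each of the 15 arrays, by group. Each point is 1 rat, its shape gives the slide, and bars are the group mean ± SD (n = 5). In 8 panels all 5 GK-S-30 points lie above all GK-Sham-PF points, and in the panels of Mvk, Mvd, Ggps1 and the second Acat2 probe these groups overlap.

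Acat2 encodes the cytosolic thiolase that joins 2 acetyl-CoA units to acetoacetyl-CoA. With probe A_43_P16774, Wistar replicates 1 to 5 had log2 levels of 12.17, 12.61, 12.04, 12.40 and 12.16. GK-Sham-PF replicates had 12.62, 12.43, 12.67, 11.91 and 11.98, and GK-S-30 replicates had 13.74, 13.65, 13.41, 14.13 and 14.01. The ranges of the control groups overlapped, and every GK-S-30 array lay above both. The mean of GK-S-30 was 13.79 ± 0.29 (SD, n = 5), 1.47 above GK-Sham-PF (SE 0.18, 2.76-fold, limma adjusted p = 0.000186) and 1.51 above Wistar (adjusted p = 2.14e-05). Within slide C the difference from GK-Sham-PF was 1.75.

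The second Acat2 probe, A_44_P271586, lay near the bottom of the scale, between 3.54 and 4.04 on all arrays. Its processed signal was 11.3 to 18.3 units. GK-S-30 differed from GK-Sham-PF by 0.14 (adjusted p = 0.448), and the groups overlapped. The annotation ties this probe to a different transcript from that of A_43_P16774, and its span of 556 bases in rn4 crosses an exon junction. Of the Acat2 probes only the bright one was called. At so low a signal the other cannot show whether Acat2 rose, and whether it reads Acat2 mRNA was not tested.

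Acat1, the mitochondrial thiolase of ketone body and isoleucine metabolism, catalyses the same reaction in another compartment. Its 2 probes differed by -0.19 and -0.15 between RYGB rats and GK-Sham-PF rats (adjusted p = 0.199 and 0.492). The within-array log2 ratio of Acat2 to Acat1 was 1.66 higher after RYGB than in GK-Sham-PF, with no overlap (exact permutation test, two-sided, p = 0.00794, the smallest possible with 5 against 5, adjusted over 18 tests 0.0204). The thiolases thus changed unequally.

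Hmgcs1 is the cytosolic synthase that adds a further acetyl unit to give HMG-CoA. On probe A_43_P11890, levels were 11.40, 11.98, 11.42, 11.98 and 11.89 in Wistar and 11.71, 11.79, 11.98, 11.11 and 11.47 in GK-Sham-PF rats. GK-S-30 rats had 13.62, 13.71, 12.97, 13.44 and 13.37. The lowest GK-S-30 array lay almost 1 unit above the highest control array, and the difference from GK-Sham-PF was 1.81 (SE 0.18, 3.51-fold, limma adjusted p = 4.97e-05).

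The second Hmgcs1 probe, A_44_P487240, whose sequence is printed above, gave a rise of nearly the same size against GK-Sham-PF but a different order of the control groups. Wistar arrays had 9.12, 9.71, 9.42, 9.69 and 9.59, GK-Sham-PF arrays 9.24, 9.01, 8.71, 8.44 and 8.70, and GK-S-30 arrays 11.10, 10.78, 10.29, 10.24 and 10.40. Here GK-Sham-PF was mostly below Wistar, with 1 overlapping Wistar array (replicate 1), and GK-S-30 was above both. The difference of GK-S-30 was 1.74 from GK-Sham-PF (3.34-fold, adjusted p = 7.78e-05) and 1.06 from Wistar (adjusted p = 0.000764), against 1.69 from Wistar with the first probe. Both probes gave 2.37 within slide C.

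Mvk phosphorylates mevalonate and is inhibited by the diphosphates further down the route. Its levels were 9.12, 9.73, 9.79, 9.41 and 9.11 in Wistar, 9.76, 9.46, 9.87, 9.40 and 10.31 in GK-Sham-PF and 10.33, 10.70, 10.25, 10.86 and 10.52 in GK-S-30 rats. GK-Sham-PF replicate 5, a dim array, reached into the GK-S-30 range, and the Wistar arrays did not. Mvk was 0.77 higher after RYGB than in GK-Sham-PF (SE 0.19, 1.71-fold, limma adjusted p = 0.0205) and 1.10 higher than in Wistar rats (adjusted p = 0.000649). Its adjusted p against GK-Sham-PF was the highest of the called probes. Within slide C the difference was 0.66, under the fixed slide block the adjusted p was 0.316, and with the replicate number as a block it was 0.057. Against Wistar the fixed slide block gave 1.24 and an adjusted p of 0.254. Without GK-Sham-PF replicate 2 or replicate 4 the call against GK-Sham-PF was lost as well, with an adjusted p of at most 0.0557.

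Mvk rose less than Hmgcs1 in the same arrays. Its ratio to Hmgcs1 (A_43_P11890) was 1.04 log2 units lower after RYGB than in GK-Sham-PF (exact permutation p = 0.00794, adjusted p = 0.0204, no overlap). Against Wistar it was 0.59 lower, with overlap (p = 0.0317 by exact permutation, adjusted p = 0.0714).

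Pmvk adds the second phosphate. Wistar arrays had 10.14, 10.34, 9.80, 10.22 and 10.24, GK-Sham-PF arrays 9.97, 9.97, 9.99, 9.60 and 9.65, and GK-S-30 arrays 10.71, 10.96, 10.52, 11.00 and 10.83. The GK-S-30 arrays stood above all others, and the spread within each group was small. Pmvk was 0.97 higher than in GK-Sham-PF (SE 0.13, 1.95-fold, limma adjusted p = 0.000334) and 0.66 higher than in Wistar rats (adjusted p = 0.0016). The slide C difference was 1.20, and under the fixed slide block the call against Wistar was lost (1.04, adjusted p = 0.116).

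Mvd removes carbon dioxide to form isopentenyl diphosphate. Its arrays read 11.08, 11.71, 11.32, 11.33 and 11.08 in Wistar, 11.54, 11.10, 11.40, 10.74 and 10.79 in GK-Sham-PF and 11.93, 11.63, 11.08, 12.31 and 11.72 in GK-S-30 rats. GK-S-30 replicate 3 lay at the lower end of the Wistar range, whereas the other GK-S-30 arrays lay above all GK-Sham-PF arrays. The difference from GK-Sham-PF was 0.62 (95% confidence interval, CI, 0.17 to 1.08, limma adjusted p = 0.0899) and from Wistar 0.43 (adjusted p = 0.157), so Mvd was not called. The methods' comparison, a one-way model with Tukey's correction for the 3 pairs of groups, put the first past the threshold. Without GK-S-30 replicate 3 the limma adjusted p was 0.0269 against GK-Sham-PF and 0.0437 against Wistar. The ratio of Pmvk to Mvd did not separate the groups (0.35, exact permutation p = 0.0873, adjusted p = 0.157).

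Idi1, the isomerase between isopentenyl and dimethylallyl diphosphate, had the largest differences of the members in both comparisons of GK-S-30. With probe A_44_P251944, levels were 8.65, 9.61, 8.58, 8.97 and 8.92 in Wistar rats and 9.62, 9.32, 9.65, 8.69 and 9.39 in GK-Sham-PF rats. GK-S-30 rats had 11.84, 11.26, 11.27, 11.51 and 11.35. The control groups overlapped widely and the GK-S-30 arrays stood well clear of both. The rise was 2.11 over GK-Sham-PF (SE 0.21, 4.32-fold, limma adjusted p = 3.82e-05), rank 27 of all 17028 tested differences, and 2.50 over Wistar (5.66-fold, adjusted p = 6.2e-07). The second Idi1 probe, A_43_P12843, rose by 1.87 and 2.20. Within slide C the probes differed by 2.51 and 2.05.

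Fdps joins isoprene units to farnesyl diphosphate, the last product shared by all branches. On probe A_44_P143567, Wistar arrays had 13.15, 13.29, 12.62, 13.24 and 13.11, GK-Sham-PF arrays 13.66, 13.71, 14.24, 13.16 and 13.42, and GK-S-30 arrays 14.75, 14.99, 14.56, 15.39 and 15.22. The mean was lowest in Wistar and highest in GK-S-30, and only Wistar and GK-Sham-PF overlapped. The step from Wistar to GK-Sham-PF was not called (0.55, limma adjusted p = 0.12). GK-S-30 exceeded GK-Sham-PF by 1.34 (SE 0.20, 2.54-fold, limma adjusted p = 0.00084) and Wistar by 1.90 (3.73-fold, adjusted p = 8.05e-06).

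Probe A_44_P432965 of Fdps, shown above, gave 1.47 and 2.11 for the same comparisons (adjusted p = 0.0013 and 1.06e-05). Within slide C, GK-S-30 exceeded GK-Sham-PF by 1.76 on this probe and by 1.58 on A_44_P143567. The probe of the near copy RGD1560208 had an r with the Fdps probes of 0.989 and 0.99 over 15 arrays and of 0.927 and 0.934 within groups, where the Fdps probes had 0.99 with each other. It rose by 1.77 from GK-Sham-PF to GK-S-30 (adjusted p = 0.000821 over 27892 probes, those without a gene name included) and by 0.94 from Wistar to GK-Sham-PF (adjusted p = 0.033). The array also has probes without a gene symbol, A_44_P928928 and A_44_P135730, which are annotated as similar to testis-specific farnesyl pyrophosphate synthetase, and these rose by 1.48 and 1.50 from GK-Sham-PF to GK-S-30 (adjusted p = 0.00165 and 0.00104). How much of these signals comes from Fdps transcripts was not tested, so the values of Fdps may include near copies.

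Ggps1 makes geranylgeranyl diphosphate from farnesyl diphosphate. Its levels were 6.49, 6.47, 6.68, 6.47 and 6.58 in Wistar, 6.63, 6.49, 6.80, 6.49 and 7.06 in GK-Sham-PF and 6.51, 6.35, 6.61, 6.76 and 6.61 in GK-S-30 rats. All 3 groups overlapped. The difference of GK-S-30 from GK-Sham-PF was -0.12 (SE 0.11, limma adjusted p = 0.594), and that from Wistar was 0.03, with 95% CIs of -0.37 to 0.12 and -0.21 to 0.27. The within-array ratio of Ggps1 to Fdps was 1.47 log2 units lower after RYGB than in GK-Sham-PF and 1.87 lower than in Wistar rats (exact permutation p = 0.00794, adjusted p = 0.0204, no overlap in either). Idi1 and Fdps, which act in sequence, did not differ beyond their spread in the same test (0.53, exact permutation p = 0.0635, adjusted p = 0.127).

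**Figure D2:**
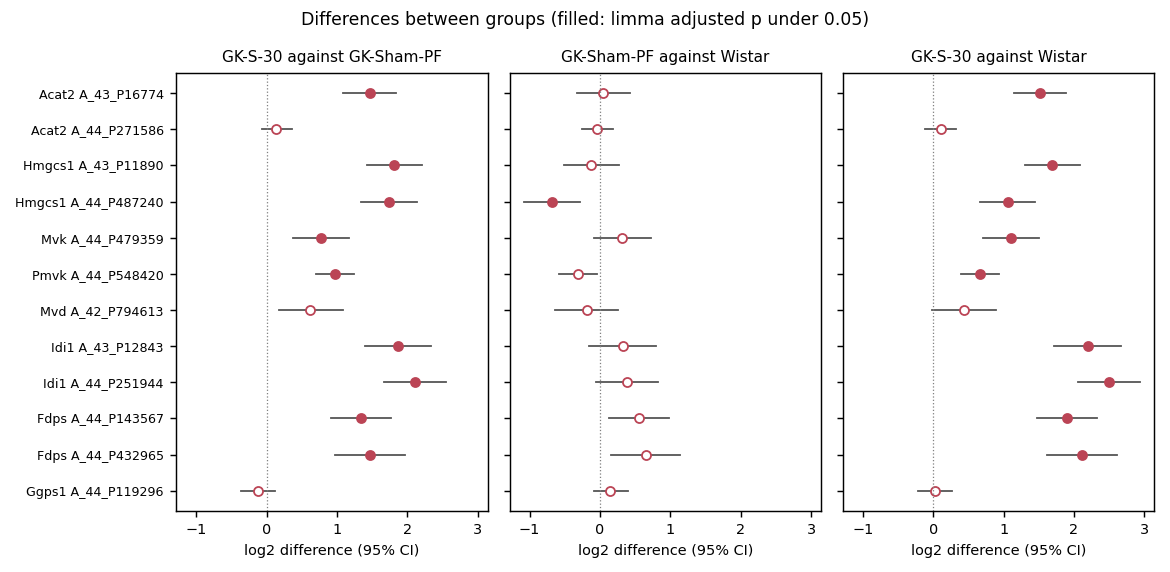
Log2 difference (horizontal axis) of each mevalonate-arm probe in the 3 comparisons, with its 95% CI as a line; filled points had a limma adjusted p under 0.05. In GK-S-30 set against GK-Sham-PF the called probes lie between 0.77 and 2.11, and in GK-Sham-PF against Wistar 1 probe, of Hmgcs1, is filled.

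Between sham-operated GK rats and Wistar rats, a single probe of the arm was called. In GK-Sham-PF against Wistar, 1 of the 12 probes was called, the Hmgcs1 probe A_44_P487240, which was 0.68 lower in GK-Sham-PF (SE 0.19, limma adjusted p = 0.0342), and none was called higher, where 4.14% of all tested probes were called lower and 3.74% higher. At an unadjusted p under 0.05 there were 4 of 12 probes, against 19.5% of all tested probes, and by the methods' comparison 1 of 12, against 13.9%. The other Hmgcs1 probe differed by -0.12 (adjusted p = 0.799), so that the probes disagree. In none of the 12 did the arrays of these groups separate, which occurred in 4.39% of all probes with GK-Sham-PF higher and in 4.66% with GK-Sham-PF lower.

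The call of A_44_P487240 was lost with slide as a fixed block (-0.13, adjusted p = 0.999) and without any 1 of 6 arrays (Wistar replicates 2, 4 and 5 and GK-Sham-PF replicates 3, 4 and 5), where the adjusted p reached 0.0935. Fdps had the largest differences in the other direction, 0.55 and 0.65 (adjusted p = 0.12 and 0.113), and slide B gave 0.72 and 0.88. The median difference of the 12 probes was 0.1, against 0.011 over all tested probes. With 5 rats per group, a p that misses the threshold does not show equal expression.

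**Figure D3:**
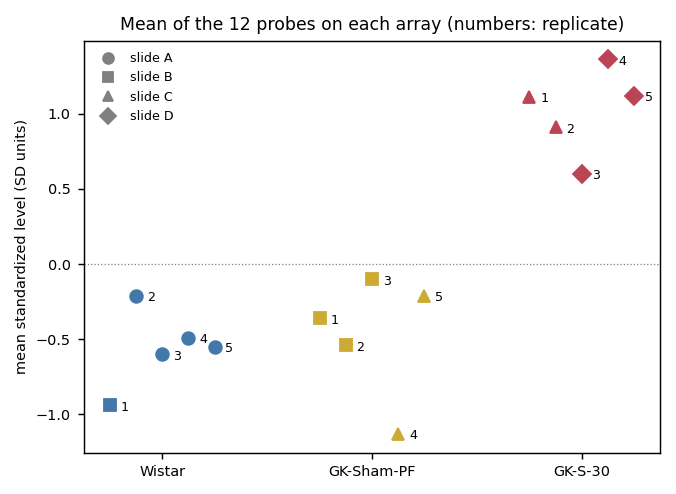
Mean of the 12 mevalonate-arm probes on each array, each probe first scaled to mean 0 and SD 1 over the 15 arrays (vertical axis, SD units), by group, with the replicate number beside each point and the slide as its shape. The GK-S-30 arrays lie between 0.60 and 1.36, and all Wistar and GK-Sham-PF arrays lie below 0.

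Most member probes also moved together from array to array. After each was scaled over the 15 arrays, their mean was 0.60 to 1.36 in GK-S-30, -0.94 to -0.21 in Wistar and -1.13 to -0.10 in GK-Sham-PF rats. GK-S-30 replicate 3 was the lowest of its group and replicate 4 the highest, while GK-Sham-PF replicate 4 was the lowest array of all. Over the 62 pairs of probes from different member genes, the median Pearson r was 0.76 across 15 arrays (range -0.36 to 0.96). After the group means were removed it was 0.41 (range -0.34 to 0.88), and 54 of the 62 pairs were above 0. Each of the other pairs included Ggps1 or the second Acat2 probe, A_44_P271586. The median within-group r of a member probe with all other tested probes was 0.019. These r values describe 15 arrays that share the same normalization. The arrays of each group are split between slides, and slide was not removed. The part of slide in these r values was not tested.

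The genes outside the arm whose pattern was most like its mean were Msmo1 (r = 0.985 over 15 arrays, 0.886 within groups), Sqle (0.977 and 0.829) and Nsdhl (0.973 and 0.913), which are enzymes of the later CHOL route. Osbpl10, an oxysterol-binding protein relative, was also among the 5 most alike genes, at 0.966. For Idi1 probe A_44_P251944 the most alike was again Msmo1 (0.989) and for Acat2 probe A_43_P16774 it was Sqle (0.976). The first Hmgcs1 probe was led by Comp (0.972) and Sqle (0.967) and the other by Insig1 (0.934). For Mvk it was Ebp (0.93), for Pmvk Riok3 (0.96), and for Mvd Dctn6 at a lower r of 0.806. Ggps1 was most like Trappc2l (0.894), a subunit of a vesicle tethering complex, and none of its 3 most alike genes belongs to the CHOL route.

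Enzymes downstream of the fork towards CHOL rose with the arm. Of 13 genes from squalene synthase to CHOL, each with 1 probe, 11 were called higher after RYGB than in GK-Sham-PF and none lower. The median difference was 1.13, and of all tested probes 4.77% were called higher and 3.59% lower. Sqle, which makes the epoxide of squalene, was 2.07 higher (limma adjusted p = 0.00015), Msmo1, a methyl sterol oxidase, 1.81 (9.2e-05), Cyp51, which removes the 14-methyl group of lanosterol, 1.60 (8.25e-05) and Fdft1, the squalene synthase that draws on farnesyl diphosphate, 1.59 (0.000288). The smallest called rises were Ebp with 0.46 and Dhcr7 with 0.49. Lbr, a sterol reductase of the nuclear envelope, was not called (-0.05, adjusted p = 0.916). Against Wistar the count was also 11 of 13, where 11.9% of all tested probes were called higher. With slide as a fixed block the counts were 6 and 5 of 13, while 1.92% and 1.57% of all tested probes were called in either direction. GK-Sham-PF against Wistar gave 0 calls by limma, where 3.74% of all tested probes were called higher and 4.14% lower. The unadjusted limma p was under 0.05 for 4 of the 13 (Cyp51, Tm7sf2, Ebp and Sc5d), against 19.5% of all tested probes. The methods' comparison called 1 of 13, against 13.9%.

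The branches that leave the arm for other isoprenoids were called about as often as all probes. Of 14 probes of 11 genes for dolichol, ubiquinone and protein prenylation, none was called higher and 1 lower after RYGB than in GK-Sham-PF rats (4.77% and 3.59% of all tested probes), and the median was 0.03. That 1 was a probe of Pdss2, a subunit of the enzyme for the ubiquinone side chain, with a difference of -0.37 (adjusted p = 0.0472), while a second Pdss2 probe gave 0.03. The farnesyltransferase subunits Fnta (0.09) and Fntb (-0.16 and 0.03) and the geranylgeranyl transferase subunit Pggt1b (0.06) were not called. Against Wistar, where 11.9% of all probes were called higher, 2 of the 14 were called higher, Dhdds, a subunit of the dolichol chain synthase (0.48, limma adjusted p = 0.0114), and 1 of the Fntb probes (0.34, 0.0273), and the same Pdss2 probe was called lower (-0.47, 0.00554).

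**Figure D4:**
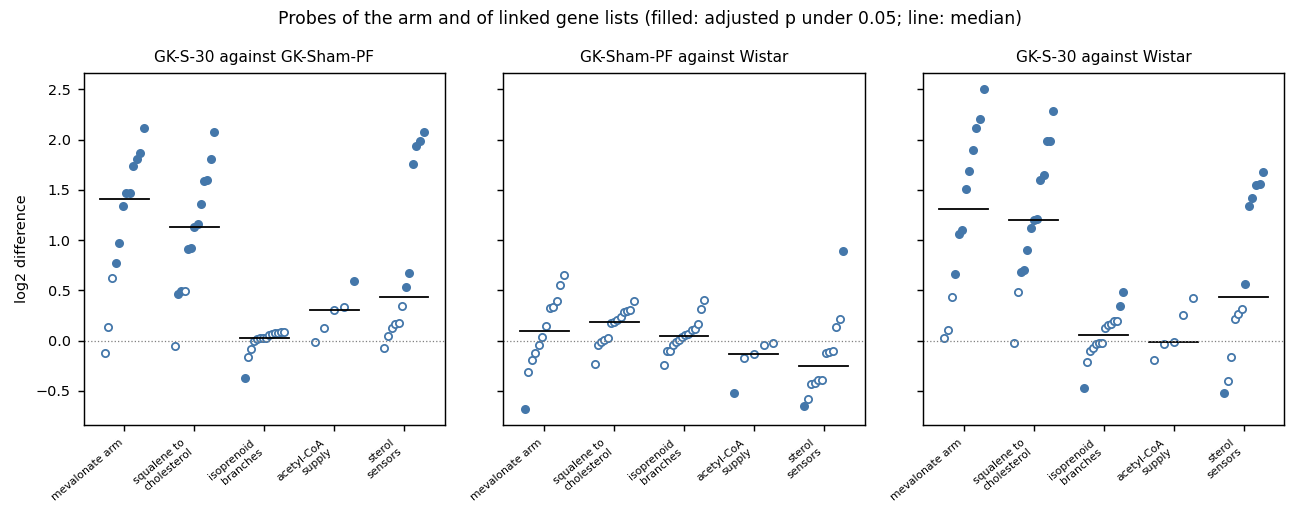
Log2 difference (vertical axis) of every tested probe of the mevalonate arm and of 4 linked gene lists in the 3 comparisons. Filled points had a limma adjusted p under 0.05 and lines are list medians, which for GK-S-30 set against GK-Sham-PF are 1.41 in the mevalonate arm, 1.13 from squalene to CHOL and 0.03 in the isoprenoid branches.

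Genes that supply cytosolic acetyl-CoA were mostly not called. In GK-S-30 set against GK-Sham-PF, 1 of 5 probes was called, that of Acss2, which activates acetate (0.59, limma adjusted p = 0.0455). Of all tested probes, 4.77% were called higher and 3.59% lower. Acly, which splits citrate, differed by 0.33 (adjusted p = 0.21), the citrate carrier Slc25a1 by 0.30 (0.156), and the pyruvate carriers Mpc1 and Mpc2 by 0.13 and -0.01. Against Wistar limma called 0 of the 5 (11.9% of all tested probes were called higher and 12.2% lower). The unadjusted limma p was under 0.05 for 1 (Acss2), against 36.5% of all tested probes. The methods' comparison also called 0, against 27.5%. In GK-Sham-PF against Wistar, 1 was called, Acly, which was lower in GK-Sham-PF (-0.52, limma adjusted p = 0.048). There, 4.14% of all tested probes were called lower.

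Among the sterol sensors, 6 of 12 probes were called higher after RYGB than in GK-Sham-PF and none lower. The shares of all tested probes were 4.77% higher and 3.59% lower. All 4 probes of Insig1, which holds SREBP precursors in the endoplasmic reticulum and is itself an SREBP target, were called, with rises of 1.76 to 2.07. One of the Srebf2 probes was called (0.67, limma adjusted p = 0.0448) and the other was not (0.34, adjusted p = 0.16). Stard4, a carrier of sterol between membranes, rose by 0.53 (adjusted p = 0.0144). Srebf1, Scap and Insig2 differed by -0.07 to 0.18 and were not called. In GK-Sham-PF against Wistar, 1 of the 12 probes was called higher and 1 lower (3.74% and 4.14% of all tested probes). These were Stard4 (0.89, limma adjusted p = 0.000161) and 1 of the Srebf1 probes (-0.65, adjusted p = 0.0305).

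Markers of other cell types were set beside these values. Of 11 smooth muscle probes 5 were called higher after RYGB than in GK-Sham-PF, those of Des, Tagln, Cnn1, Actg2 and 1 of Smtn. In this comparison 4.77% of all tested probes were called higher and 3.59% lower. The summed signal of the 8 smooth muscle genes was 87000 to 113000 in GK-S-30, 27200 to 47700 in Wistar and 24900 to 52900 in GK-Sham-PF rats. The array with the largest smooth muscle sum of its group had a mean of the member probes of -1.13 in GK-Sham-PF (replicate 4) and -0.94 in Wistar rats (replicate 1), the lowest of each group. In GK-S-30 rats it was replicate 5 (sum 113000), with a mean of 1.12, the second highest. GK-S-30 replicates 3 and 4 had nearly the same sum (111000 each), with means of 0.60, the lowest of the group, and 1.36, the highest. None of 14 enterocyte probes was called in GK-S-30 set against GK-Sham-PF. The enterocyte sum was 1120000 to 1250000 in GK-S-30 against 1120000 to 1290000 in GK-Sham-PF and 1170000 to 1360000 in Wistar rats. It weighs bright markers such as Apoa4 (mean log2 level 18.27 in GK-S-30) far above dim ones such as Lct (10.23 and 8.48). The Lct probes differed by -1.06 and -1.12 from GK-Sham-PF (limma adjusted p = 0.271 and 0.0542), and the median of the 14 was -0.07. Against Wistar, 2 of 14 were called lower, an Lct probe (-1.24) and Fabp2 (-0.28), and none higher (12.2% and 11.9% of all tested probes). In GK-S-30 set against GK-Sham-PF, 3 of 7 enteroendocrine, 1 of 6 goblet and 1 of 6 hepatocyte probes were called higher. Of 9 immune probes 2 were lower, as were 1 of 3 pancreatic acinar and 1 of 6 enteric neuron and glia probes, and no Paneth (3 probes), gastric (3), adipocyte (3) or proliferation (8) probe was called. The part of cell makeup in the rise of the mevalonate arm was not tested.

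Promoter sequences of the members were read from RefSeq (GRCr8) because most of the member genes moved together. The 250 bases before the annotated start were taken, and 7 of 8 members were matched, Pmvk being the exception. Windows of Idi1 and Hmgcs1, which had the largest differences from GK-Sham-PF, of Fdps, at the fork, and of Ggps1, which was not called, are shown. Capitals mark CCAAT, the box bound by NF-Y, and GGGCGG, the box bound by Sp1, on either strand, where the minus strand reads ATTGG and CCGCCC.

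Idi1, chr17:66547525-66547774, minus strand: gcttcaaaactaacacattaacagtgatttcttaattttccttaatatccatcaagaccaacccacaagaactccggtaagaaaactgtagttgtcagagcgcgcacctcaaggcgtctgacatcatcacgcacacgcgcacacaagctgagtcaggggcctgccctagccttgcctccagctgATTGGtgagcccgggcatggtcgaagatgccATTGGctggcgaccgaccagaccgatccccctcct
Hmgcs1, chr2:53382054-53382303, plus strand: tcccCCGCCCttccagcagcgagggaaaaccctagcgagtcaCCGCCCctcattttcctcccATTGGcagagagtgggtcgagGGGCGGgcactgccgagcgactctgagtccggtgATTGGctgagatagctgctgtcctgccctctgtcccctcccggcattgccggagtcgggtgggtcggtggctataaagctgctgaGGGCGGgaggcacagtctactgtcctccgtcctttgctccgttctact
Fdps, chr2:176804817-176805066, minus strand: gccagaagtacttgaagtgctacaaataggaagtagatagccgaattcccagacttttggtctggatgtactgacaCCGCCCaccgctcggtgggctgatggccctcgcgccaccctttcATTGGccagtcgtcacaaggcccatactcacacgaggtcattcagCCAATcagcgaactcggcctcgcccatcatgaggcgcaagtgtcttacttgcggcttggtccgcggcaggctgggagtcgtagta
Ggps1, chr17:55958500-55958749, plus strand: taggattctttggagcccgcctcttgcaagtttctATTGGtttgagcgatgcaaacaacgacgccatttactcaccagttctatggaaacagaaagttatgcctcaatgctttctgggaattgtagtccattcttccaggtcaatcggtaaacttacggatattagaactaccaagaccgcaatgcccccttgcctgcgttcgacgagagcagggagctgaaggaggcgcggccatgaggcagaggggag

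CCAAT was found in 6 of the 7 member windows and in 34.0% of all 33469 windows of the table. It occurred in Hmgcs1, Mvk, Mvd, Idi1, Fdps and also in Ggps1, and not in Acat2. Mvk held 5 copies and Idi1, Hmgcs1 and Fdps 2 each, and Mvd and Ggps1 held 1 each, at -35 and -215 from the start. GGGCGG was found in 5 of 7 (Acat2, Hmgcs1, Mvk, Mvd and Fdps) and in 30.5% of all windows. The sterol regulatory element in the form TCACNCCAC, where N is any base, was in none of the 7 windows and in 0.974% of all, and CACGTG was in none of the 7 and in 5.59% of all. Both strands were searched, and GC content was 50% to 65.6% in the member windows against a median of 51.2%. A match is a description of letters, and binding was not measured.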

How the data were processed

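RNA from the intestine of 15 rats was measured on 1-colour Agilent arrays. The authors deposited the intensity of each spot as Feature Extraction (10.7.3.1 by the file headers, 10.7 in the submitters' processing notes) wrote it, a processed signal with local background subtracted, besides the mean signal and the median background. A matrix of quantile-normalized log2 values was deposited as well. From the processed signal, spots marked as outliers and control spots (45018 spots, 43379 not controls) were left out, and repeated spots were averaged per probe. Quantile normalization on the log2 scale and all fits used limma (3.58.1, under R 4.3.3). Quantile normalization takes the overall distribution as equal, so values are relative. Probes were named through RefSeq (17540 by accession, 3098 by symbol, 547 by synonym), 1317 kept the file's name and 18510 had none. A named probe entered the tests when all arrays of 1 or more groups were well above background.

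The 3 groups, taken from the sample labels, were fitted in 1 limma model over 15 arrays without covariates, with Benjamini-Hochberg adjustment across all genes' probes at 0.05. Within-array ratios of 6 enzyme pairs (brightest probes) were compared by two-sided exact permutation tests. The limma model and the methods' comparison were tried on simulated data with known changes. The permutation test was checked only on numbers with a known p. Named are all member probes, lists of linked genes and cell type markers, and the genes whose profiles were most alike (3 per probe, 5 for the mean). Members and lists were chosen with earlier results of these data known. Each array is 1 rat, and p-values measure the spread between these rats. Another enzyme of the arm and some linked genes are not reported here.

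Replicate numbers do not mark shared animals. Alternatives were 75th percentile scaling, normexp background (offset 50), the deposited log2 matrix, other filters, probes without names included, 1 probe per gene, slide and replicate blocks, array weights, the methods' comparison, and leaving out arrays.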

Additional observations from a re-analysis of the deposited data

Results flagged for a closer look

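Within groups of 5 arrays, 2 of the 36 combinations of member probe and group held an array whose gap to its nearest neighbour was large for the range of the group (Dixon's test at the 95% level, which chance alone passes in about 1 of 20 groups). On the second Acat2 probe, A_44_P271586, Wistar replicate 1 had a log2 level of 3.54 against 3.82 for the nearest array, at a signal near background. On Fdps probe A_44_P143567, Wistar replicate 3, a dim array, had 12.62 against 13.11.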

How the results depend on the processing

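The count of member probes called in GK-S-30 set against GK-Sham-PF was 9 and lay between 6 and 10 in all alternatives (6 with 1 probe per gene, where 8 probes were tested), and in GK-S-30 against Wistar it was 9 and lay between 6 and 10. With slide as a fixed block these counts were 8 and 7, while calls over all probes fell to 1.92% and 1.57%. Of the single member values under alternatives, 988 kept direction and side of the threshold, 19 lost and 6 gained the call, and 16 changed sign.

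The single call in GK-Sham-PF against Wistar depended on the setting. It became 0 with normexp, without a filter, with the brightest probe, with slide as a fixed block, with replicate as a block, with Tukey p after Benjamini-Hochberg adjustment and without the 2 dim arrays. With array weights it became 4, of which 2 were higher in GK-Sham-PF (both Fdps probes). Leaving out each array in turn gave 8 to 10 calls for GK-S-30 set against GK-Sham-PF, 9 to 10 against Wistar, and 0 to 1 for GK-Sham-PF against Wistar. From squalene to CHOL the same gave 10 to 12, 11 to 12 and 0, and the enzyme pairs gave 4 to 5, 3 to 4 and 0 unequal changes. For that list, the fixed slide block left 6 of 13 in GK-S-30 set against GK-Sham-PF and 5 against Wistar. GK-Sham-PF against Wistar gave 3 with array weights and 1 by Tukey p (13.9% of all tested probes). The cause was not tested.

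Values that changed sign were called under no setting. For GK-Sham-PF against Wistar, Acat2 (A_43_P16774) gave -0.04 to 0.15 when each array was left out, Hmgcs1 (A_43_P11890) -0.21 to 0.01 and Acat2 (A_44_P271586) -0.11 to 0.01. The fixed slide block gave 0.43 for Hmgcs1 (A_43_P11890), 0.27 for Mvd and 0.15 for Acat2 (A_44_P271586), array weights gave 0.01 for Mvd, and normexp gave 0.06 for Acat2 (A_44_P271586). That Acat2 probe also gave -0.04 (75th percentile) and -0.02 (normexp) for GK-S-30 set against GK-Sham-PF and -0.06 (75th percentile) against Wistar. Ggps1 in GK-S-30 against Wistar gave -0.03 with the 75th percentile, -0.19 with the fixed slide block and -0.02 to 0.08 when each array was left out.

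With the replicate number as a block, 8 member probes were called in GK-S-30 set against GK-Sham-PF, 9 against Wistar and 0 in GK-Sham-PF against Wistar, and Mvk lost its call. The number does not pair the samples, since deviations of same-numbered arrays correlated between -0.29 and 0.2 in 15 pairs, of which 3 exceeded 0.1. Slide as a random block had a consensus correlation of -0.045 and left the count for GK-Sham-PF against Wistar at 1. Low signal limits the second Acat2 probe most.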
